A study of Mus musculus with 8 samples.

Results

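Zc4h2, Nicn1, Speer4a and Kcnmb2 are 4 mouse genes that were selected on their measured levels, out of 35976 gene symbols in a raw count table, for a large drop in oocyte libraries labelled as H2A.Z double knockout (DKO) together with little change, or a change the other way, in Mll2 knockout (KO) oocytes. Because those same libraries chose the genes, their values in both mutants are a description and carry no test. RNA was sequenced from full-grown oocytes, the large growth-completed egg cells of the ovary, with 2 libraries in each of 4 groups. The groups were oocytes labelled H2A.Z DKO (a double knockout of H2A.Z.1 and H2A.Z.2), their H2A.Z control (genotype given as wild type), Mll2 KO oocytes, and their Mll2 WT control (genotype given as wild type). Each library came from a pool of about 20 oocytes and 200 pg of cDNA, and the labels used here give no Cre driver, strain or age. They also do not say whether the 2 libraries of a group came from different animals, so each p-value below measures the spread between libraries only.

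The libraries held 20309233 to 30087863 counts and 21077 to 22212 detected genes, and replicates of a group correlated across genes at r = 0.984 to 0.989 on the log2 scale. The targeted genes were read first as a check of the labels. H2afz, the gene of H2A.Z.1, had 322.4 and 317.2 CPM (counts scaled to library size, with edgeR's TMM factors) in the libraries labelled DKO, against 23.94 and 29.97 CPM in H2A.Z controls. H2afv, the gene of H2A.Z.2, had 285.0 and 294.2 CPM in the libraries labelled DKO, against 107.9 and 107.2 CPM in H2A.Z controls. Both therefore go against the DKO label, and a count per gene does not show which exons its reads came from, so every direction below is that of the libraries labelled DKO. Kmt2b, the gene of Mll2, had 8.73 and 9.28 CPM in Mll2 KO oocytes, against 41.92 and 42.38 CPM in Mll2 WT oocytes.

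H2A.Z, a histone variant, is placed in nucleosomes beside transcription start sites, and Mll2 is an enzyme that methylates lysine 4 of histone H3, a mark that growing oocytes lay down broadly. Full-grown oocytes have stopped most transcription, so their mRNA is largely a store built during growth. The 4 genes have unrelated products. Zc4h2 encodes a zinc finger partner of ubiquitin ligases known from neural development, and Nicn1 encodes a subunit of the tubulin polyglutamylase complex, which adds glutamate chains to microtubules. Kcnmb2 encodes an auxiliary beta subunit of the large-conductance calcium-activated potassium channel, and Speer4a belongs to a rodent family of glutamate-rich proteins named for their expression in testis.

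The sequences around the transcription start sites are shown because H2A.Z is known to sit beside the start site, and to let the 4 genes be compared there. Each line gives the 150 bases before and the first 20 bases of a RefSeq transcript on GRCm38.p6 (mm10), 5′ to 3′ on the gene's own strand. For Zc4h2, Nicn1 and Speer4a that start is the outer edge of the gene. The Kcnmb2 window lies inside its gene span (chr3:31901861-32200180), so it shows an internal start. All promoter values of Kcnmb2 below belong to that internal start. Capitals mark matches to CCAAT, to GGGCGG and to the run ACTACAACTCCC, each on either strand.
Zc4h2, chrX:95658490-95658659, minus strand: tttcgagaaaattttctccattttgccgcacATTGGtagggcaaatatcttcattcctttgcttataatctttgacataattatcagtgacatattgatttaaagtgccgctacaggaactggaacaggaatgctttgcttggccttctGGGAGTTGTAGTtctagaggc
Nicn1, chr9:108290293-108290462, plus strand: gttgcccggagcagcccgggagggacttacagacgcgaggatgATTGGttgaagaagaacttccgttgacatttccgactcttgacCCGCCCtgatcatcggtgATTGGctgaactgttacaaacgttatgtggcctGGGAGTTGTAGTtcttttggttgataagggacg
Speer4a, chr5:26039486-26039655, minus strand: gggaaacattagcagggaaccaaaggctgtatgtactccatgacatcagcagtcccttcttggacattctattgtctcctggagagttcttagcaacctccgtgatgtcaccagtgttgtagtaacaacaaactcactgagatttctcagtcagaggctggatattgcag
Kcnmb2, chr3:31902553-31902722, plus strand: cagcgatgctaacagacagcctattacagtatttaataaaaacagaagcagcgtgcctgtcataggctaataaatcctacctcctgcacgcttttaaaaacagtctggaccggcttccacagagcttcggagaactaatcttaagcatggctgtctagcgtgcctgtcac

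Zc4h2 and Nicn1, the pair with the lowest levels relative to control, shared a stretch of 17 bases at the start site, and its inner 12 bases, ACTACAACTCCC on the other strand, were followed further, a choice made after the sequences were seen. In Zc4h2 it began at the last base before the start, and in Nicn1 it ended 2 bases before the start. Its letters resemble the recognition sequence known for the factors ZNF143 and THAP11. The run stood in 135 of 32851 mouse promoters of 300 bases (0.411%), and neither Speer4a nor Kcnmb2 had it in that window. The outer start of Kcnmb2 was not searched. CCAAT, searched on both strands, matched 3 times in the Nicn1 promoter and 1 time each in Zc4h2 and Speer4a, and 37.4% of all promoters held it. GGGCGG matched 1 time in Nicn1 alone, and 35.7% of all promoters held it. TATAAA likewise matched 1 time in Nicn1 alone (13.6% of all promoters), while CACGTG (7.15% of all promoters) matched in none of the 4.

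The 4 promoters were lower in GC content than the median promoter and differed widely in CpG. GC content was 45.7% in Zc4h2, 46.7% in Nicn1, 49.3% in Speer4a and 47.7% in Kcnmb2, against a median of 52.7% over all promoters. Nicn1 had 13 CpG sites, an observed to expected ratio of 0.829 at percentile 81.6 of all promoters. Zc4h2 (8 sites, ratio 0.524) and Kcnmb2 (9 sites, ratio 0.529) lay above the median ratio of 0.384. Speer4a had 2 CpG sites and a ratio of 0.110, at percentile 14.7. No base composition or searched motif was thus common to all 4 beyond GC content under the median.

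The run was then followed in other genes, as a description with no test. Of the 110 other tested genes with the run, 24 (21.8%) were called lower and 21 (19.1%) higher in the libraries labelled DKO, against 1498 (12%) lower and 2451 (19.7%) higher among all 12436 tested genes with a promoter sequence. In Mll2 KO oocytes 8 (7.27%) were called lower and 25 (22.7%) higher, against 2069 (16.6%) lower and 1824 (14.7%) higher among the 12436. Called means an adjusted p under 0.05 in edgeR's quasi-likelihood test. A log2 difference of -2 or lower in the libraries labelled DKO together with -0.5 or higher in Mll2 KO was seen in 5 of the 110 genes (4.55%), against 154 of the 12436 (1.24%). With any letter allowed at 1 base of the run (ACTACAANTCCC), 6 of 260 genes (2.31%) had that pattern, and 7 (2.69%) were at -2 or lower under the DKO label, the same share as the 335 (2.69%) of the 12436.

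The 5 genes with the full run were Tmem102, Cep97, Dnajc17, Zfp691 and Sirt2. Tmem102 was at the floor in the whole H2A.Z line, with 0 and 0 CPM in the libraries labelled DKO, against 0 and 0.0399 CPM in H2A.Z controls (adjusted p = 0.44), and it passed the filter through the Mll2 line. Zfp691 had 0.0887 and 0.190 CPM in the libraries labelled DKO, against 0.672 and 0.677 CPM in H2A.Z controls. Cep97, a centriole protein, had 0.266 and 0.142 CPM in the libraries labelled DKO, 3.15 and 3.23 CPM in H2A.Z controls, 3.20 and 3.23 CPM in Mll2 KO, and 3.11 and 3.30 CPM in Mll2 WT oocytes. Sirt2, a deacetylase that acts on tubulin among other proteins, had 1.07 and 0.854 CPM in the libraries labelled DKO, 6.88 and 8.89 CPM in H2A.Z controls, 10.6 and 10.5 CPM in Mll2 KO, and 8.66 and 7.98 CPM in Mll2 WT oocytes. Both were lower in the libraries labelled DKO than in the other 6 libraries, and they were named because of those values.

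Zc4h2 (chrX:95639187-95658509, minus strand) was the lowest of the 4 in the libraries labelled DKO, in level and relative to control. It had 0.266 and 0.285 CPM there, against 12.05 and 10.28 CPM in H2A.Z controls. In the Mll2 line it had 4.01 and 5.58 CPM in KO oocytes, against 4.99 and 7.52 CPM in WT oocytes. Every library outside the DKO label was thus far above the DKO-labelled pair, while Mll2 KO and WT overlapped. The DKO-labelled mean was 0.276 ± 0.0132 CPM, or 2.47% of the H2A.Z control mean of 11.2 ± 1.25 CPM (SD, n = 2 each).

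The fitted log2 difference of Zc4h2 was -5.32 ± 0.37 (SE) between the libraries labelled DKO and H2A.Z control, which is 39.8-fold lower and the 12th lowest of 16847 tested genes. The difference was -0.38 ± 0.24 between Mll2 KO and WT. Behind the low values stood 6 counts in each library labelled DKO, against 233 and 258 counts in H2A.Z controls. In the first library labelled DKO the exact binomial 95% interval of 6 counts was 0.0883 to 0.523 CPM, taken on the plain library total. This interval covers counting error only. The low level was therefore a measured value, not a 0.

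**Figure D1:**
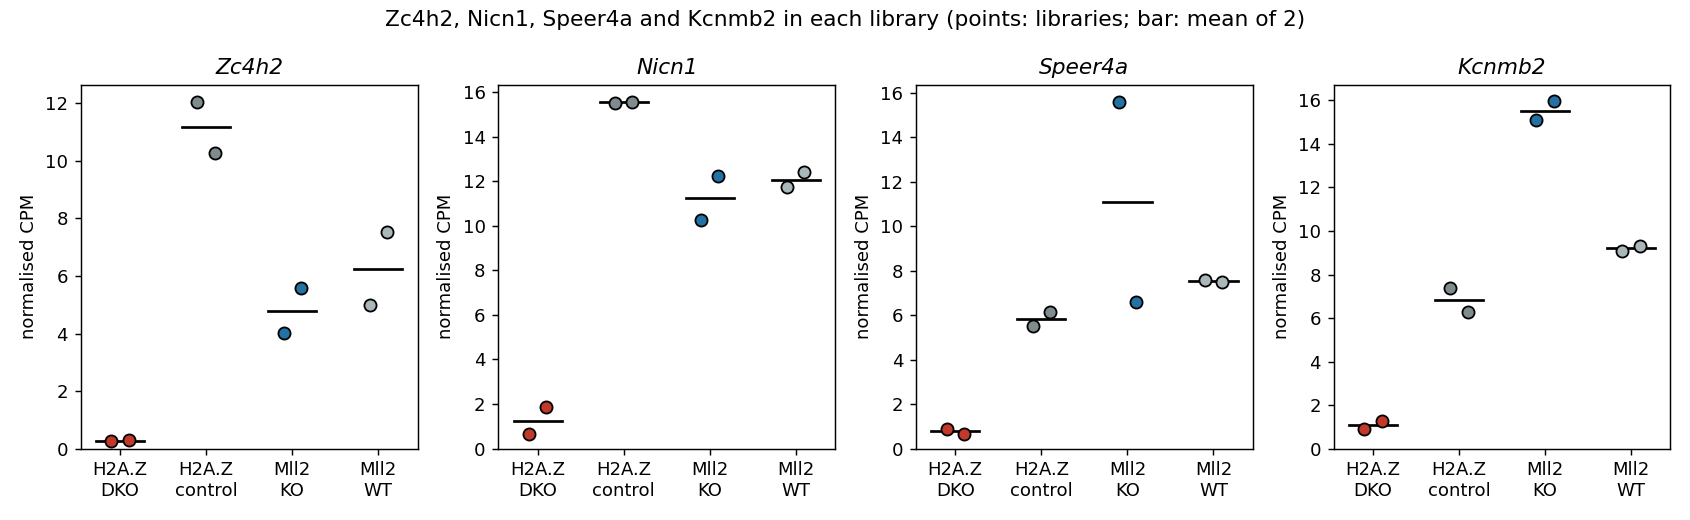
Normalised CPM (y axis, linear, a separate scale per gene) of Zc4h2, Nicn1, Speer4a and Kcnmb2 in the 4 groups; points are libraries and bars are the mean of 2. In each panel the pair of libraries labelled H2A.Z DKO lies at the bottom, between 0.266 and 1.85 CPM, and 1 Mll2 KO library of Speer4a stands apart at 15.6 CPM.

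The genes around Zc4h2 on the X chromosome did not share its level in the libraries labelled DKO. Among the 5 nearest protein-coding genes on each side, 7 of 10 were tested, 2 were called higher and 1 lower. Over all 16847 tested genes, 3269 (19.4%) were called higher and 1929 (11.5%) lower in that comparison, so 62.9% of its calls were higher, against 45.5% with libraries scaled by total alone. Asb12, the nearest on one side at 81.2 kb, had 6.25 and 7.26 CPM in the libraries labelled DKO, against 8.38 and 6.97 CPM in H2A.Z controls, and it did not pass the test (log2 -0.18 ± 0.21, adjusted p = 0.548).

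Zc3h12b, the nearest on the other side at 53.1 kb, had 5.72 and 5.22 CPM in the libraries labelled DKO, against 3.15 and 3.35 CPM in H2A.Z controls (log2 0.75 ± 0.26, adjusted p = 0.0368). It lost that call when any H2A.Z library or any Mll2 WT library was left out, with an adjusted p of up to 0.171, and also under DESeq2 size factors (0.0523), library total alone (0.0906), no filter (0.0502), the DESeq2 Wald test (0.0976) and the replicate block (0.0505). Amer1, a regulator of Wnt signalling, fell by 0.66 ± 0.22 (adjusted p = 0.0351), and it missed the threshold without any 1 of the 4 H2A.Z libraries, at up to 0.157. In Mll2 KO 0 of the 7 were called by edgeR, 0 had an unadjusted p under 0.05 and 0 were called by DESeq2, while over all genes 2428 of 16847 genes (14.4%) were called higher and 2730 (16.2%) lower.

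The transcripts of Zc4h2 partners and of the Smad pathway showed more higher than lower calls under the DKO label, as all genes did. The list of known partners and of the BMP Smad signalling that Zc4h2 is known to act on in Xenopus held 14 genes, 13 of them tested, of which 4 were called higher and 1 lower, with a median log2 difference of 0.10 against 0.12 over all tested genes. That is 4 and 1 of 13 beside 19.4% higher and 11.5% lower over all genes, and with libraries scaled by total alone it was 2 and 1. Rnf220, the ubiquitin ligase that binds Zc4h2, had 162.5 and 168.4 CPM in the libraries labelled DKO, against 120.3 and 117.1 CPM in H2A.Z controls. It rose by 0.48 ± 0.10 on the log2 scale (edgeR, adjusted p = 0.00215), and both libraries labelled DKO lay above both controls.

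Smurf2, a ubiquitin ligase of the Smad pathway, had 76.3 and 71.0 CPM in the libraries labelled DKO, against 53.7 and 51.6 CPM in H2A.Z controls, and 68.8 and 68.5 CPM in Mll2 KO, against 95.8 and 100.3 CPM in Mll2 WT. It rose in the H2A.Z line (0.48 ± 0.11, adjusted p = 0.00305) and fell in the Mll2 line (-0.51 ± 0.10, adjusted p = 0.00177), and the difference between these effects was 1.00 ± 0.15 (adjusted p = 0.000274). Smad9, a BMP-responsive Smad, had 1.15 and 1.52 CPM in the libraries labelled DKO, against 2.84 and 3.23 CPM in H2A.Z controls. It fell by 1.19 ± 0.32 (adjusted p = 0.0105), and it missed the threshold without H2A.Z control 2 (0.08306) or DKO 1 (0.102).

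Rlim, a ligase encoded on the X chromosome, rose by 0.45 ± 0.13 (adjusted p = 0.016), and Smad4, the common partner of the receptor-activated Smads, by 0.42 ± 0.14 (adjusted p = 0.0287). Rlim missed the threshold without any 1 H2A.Z library (up to 0.116), without Mll2 WT 2 (0.112) or with library total alone (0.0905). Smad4 missed it without either H2A.Z control, DKO 1 or Mll2 WT 2, at up to 0.287, and with DESeq2 size factors (0.0548), library total alone (0.151) and the DESeq2 Wald test (0.0564). In Mll2 KO 0 of the 13 were called higher by edgeR or DESeq2, and 1 was higher at an unadjusted p under 0.05. There 3 were called lower, while over all tested genes 14.4% were called higher and 16.2% lower. The 3 were Smurf2 and the BMP receptors Bmpr2 and Bmpr1b, of which Bmpr1b fell by 0.42 ± 0.10 (adjusted p = 0.00706) and missed the threshold without Mll2 WT 2 (0.0682).

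Nicn1 (chr9:108290443-108296498, plus strand) was the second lowest of the 4 relative to its control, and the highest of the 4 in level, under the DKO label. It had 0.665 and 1.85 CPM there, against 15.51 and 15.58 CPM in H2A.Z controls. In the Mll2 line it had 10.3 and 12.2 CPM in KO oocytes, against 11.7 and 12.4 CPM in WT oocytes. The libraries labelled DKO lay below all others, and the Mll2 KO and WT ranges overlapped.

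The log2 difference of Nicn1 was -3.64 ± 0.30 (12.4-fold lower, 8.09% of the H2A.Z control mean) in the libraries labelled DKO, and -0.10 ± 0.23 in Mll2 KO. The pair labelled DKO differed in depth of loss, with 15 and 39 counts, against 300 and 391 counts in H2A.Z controls. Their exact binomial intervals, 0.337 to 0.992 and 1.17 to 2.24 CPM, taken on the plain library total, did not overlap. Without the first library labelled DKO the log2 difference was -3.07, and without the second it was -4.54, so its size depends on which is kept and its direction does not.

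The neighbours of Nicn1 did not share its level. Of the 10 nearest protein-coding genes 9 were tested, of which 3 were called higher and 0 lower under the DKO label. The shares over all tested genes were 19.4% higher and 11.5% lower. At an unadjusted p under 0.05 edgeR had 1 of the 9 lower, DESeq2 called 1 lower, and 2 were called lower with libraries scaled by total alone. Amt, a mitochondrial glycine cleavage enzyme whose gene lies 0.406 kb away, had 0.311 and 0.190 CPM in the libraries labelled DKO, against 0.155 and 0.0399 CPM in H2A.Z controls, and did not pass the test (adjusted p = 0.303). Tcta, at 6.46 kb, had 9.36 and 9.54 CPM in the libraries labelled DKO, against 5.01 and 3.94 CPM in H2A.Z controls, and rose by 1.08 ± 0.22 (adjusted p = 0.00198).

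Apeh, an acylpeptide hydrolase, rose in both lines: it had 46.7 and 49.5 CPM in the libraries labelled DKO, against 27.1 and 30.4 CPM in H2A.Z controls (log2 0.74 ± 0.13, adjusted p = 0.000537), and 59.8 and 68.5 CPM in Mll2 KO, against 37.6 and 34.7 CPM in Mll2 WT (0.83 ± 0.13, adjusted p = 0.000155). Dag1, which encodes dystroglycan, lies 26.5 kb on the other side and had 21.7 and 21.6 CPM in the libraries labelled DKO, against 13.8 and 11.3 CPM in H2A.Z controls. It rose by 0.79 ± 0.19 (adjusted p = 0.00515), though this call was lost without H2A.Z control 2 (0.086). By edgeR with TMM scaling the calls near Nicn1 under the DKO label were thus higher, with the exceptions under other settings given above.

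**Figure D2:**
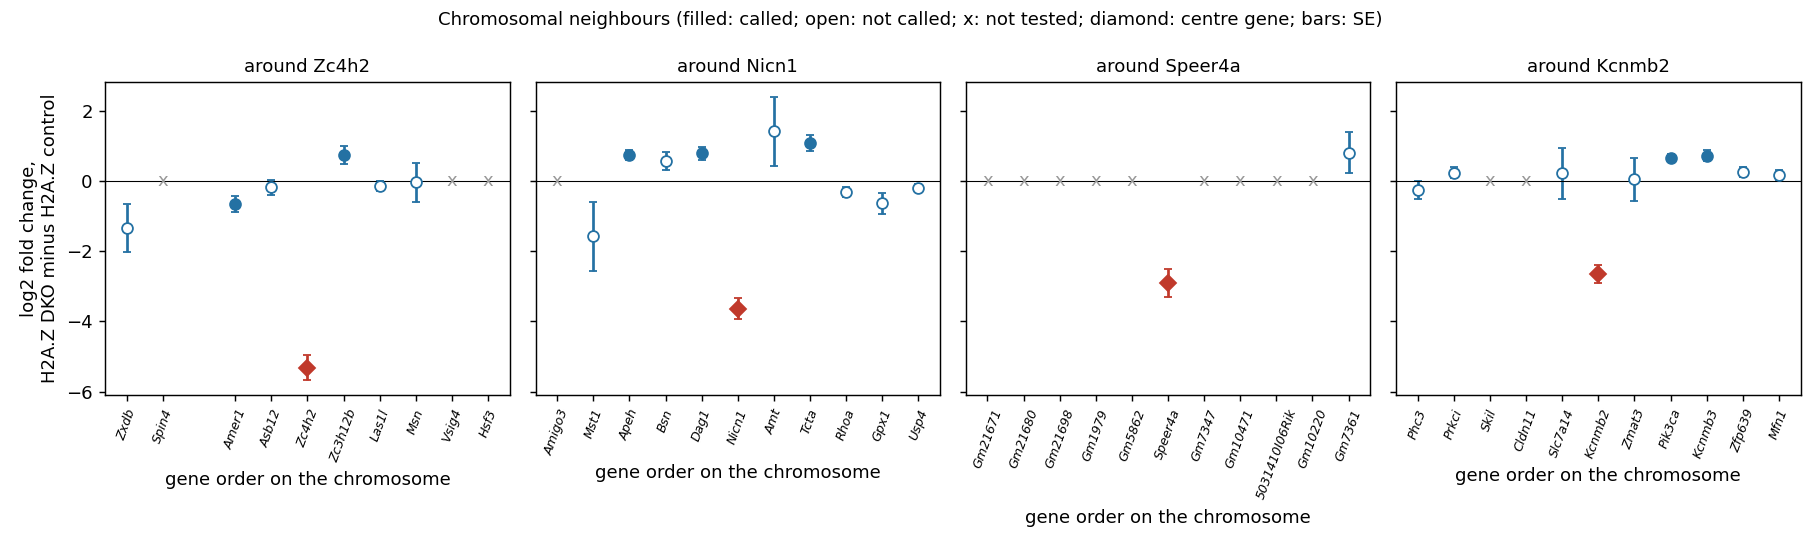
Log2 fold change, H2A.Z DKO as labelled minus H2A.Z control (y axis), of Zc4h2, Nicn1, Speer4a and Kcnmb2 (diamonds) and of reported genes among the 5 nearest protein-coding genes on each side in chromosomal order (x axis); bars are SE, filled circles are called, open circles are not, crosses were not tested. The diamonds lie at -5.32, -3.64, -2.90 and -2.65, and Amer1 is the 1 filled circle below 0.

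The other genes of tubulin glutamylation showed no common direction in the libraries labelled DKO. The list held the subunits of the Nicn1 complex, the Ttll ligases and the Agbl and Agtpbp1 enzymes that remove glutamates. Of 23 with counts listed, 19 were tested, and 2 were called higher and 2 lower under the DKO label (median log2 0.01). In Mll2 KO 2 were called higher and 6 lower (median -0.26, against 0.02 over all tested genes). Over all tested genes 19.4% were called higher and 11.5% lower under the DKO label, and 14.4% and 16.2% in Mll2 KO. Ttll1, the catalytic subunit of the complex, had 27.6 and 32.5 CPM in the libraries labelled DKO, against 27.4 and 32.8 CPM in H2A.Z controls, with a log2 difference of -0.00 (adjusted p = 0.988). Its partner Nicn1 was at 8.09% of control in the same libraries.

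Tpgs2, another subunit of the complex, had 1049 and 1151 CPM in the libraries labelled DKO, against 1129 and 1050 CPM in H2A.Z controls, and did not pass the test there (log2 0.01, adjusted p = 0.949). It fell in Mll2 KO, with 405.1 and 287.3 CPM, against 638.8 and 643.5 CPM in WT (-0.89 ± 0.13, adjusted p = 0.000154), and the difference between the effects in both lines was 0.90 ± 0.19 (adjusted p = 0.00369). Ttll4, a ligase that starts glutamate chains, rose in both lines, by 0.68 ± 0.12 (adjusted p = 0.000706) in the libraries labelled DKO and by 0.71 ± 0.12 (adjusted p = 0.000333) in Mll2 KO.

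Tpgs1, a further subunit, had 28.6 and 29.7 CPM in the libraries labelled DKO, against 19.7 and 22.6 CPM in H2A.Z controls. It rose by 0.46 ± 0.14 (adjusted p = 0.0231), though this call was lost without any 1 H2A.Z library (up to 0.194), without Mll2 WT 2 (0.131), or with libraries scaled by total alone (0.115). In Mll2 KO it rose by 0.71 ± 0.14 (adjusted p = 0.00158). On this list 1110051M20Rik, to which no role is given here, was lower in both lines.

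The gene 1110051M20Rik had 2.71 and 3.04 CPM in the libraries labelled DKO, against 14.58 and 14.07 CPM in H2A.Z controls (log2 -2.32 ± 0.20, adjusted p = 1.26e-06). It had 3.675 and 3.999 CPM in Mll2 KO, against 9.69 and 10.1 CPM in WT (-1.36 ± 0.19, adjusted p = 8.06e-05). Unlike Nicn1, it was thus lower in both lines. Ttll7, a neuronal tubulin ligase, fell in Mll2 KO (-1.39 ± 0.39, adjusted p = 0.0129), though this call was lost without WT 2 (0.121) or KO 1 (0.0669). Agbl1, a deglutamylase, likewise fell there (-1.23 ± 0.36, adjusted p = 0.0176), though this call was lost without WT 1 (0.101) or KO 2 (0.108) and with the line fitted alone (0.0579).

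Speer4a (chr5:26034270-26039505, minus strand) had 0.887 and 0.665 CPM in the libraries labelled DKO, against 5.53 and 6.14 CPM in H2A.Z controls. In the Mll2 line it had 15.6 and 6.59 CPM in KO oocytes, against 7.60 and 7.49 CPM in WT oocytes. The libraries labelled DKO lay below all others, while the Mll2 KO pair spread to both sides of the WT pair. The log2 difference was -2.90 ± 0.40 in the libraries labelled DKO, 7.47-fold lower and 13.3% of the H2A.Z control mean.

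The Mll2 KO difference of Speer4a was 0.56 ± 0.29, and it rested on 1 library. Without Mll2 KO 1, which had 463 counts, it was -0.18, and without KO 2, which had 196 counts, it was 1.02. The mean of 11.1 CPM in Mll2 KO accordingly had an SD of 6.38. A change the other way in Mll2 KO was therefore not shown for Speer4a by both libraries.

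Speer4a has near copies, among them Speer4b, so reads may be split between Speer4a and these. Speer4b matched 73.7% of the Speer4a transcript of 2980 bases at 95.3% identity, and 100% of its own 2193 bases matched Speer4a. Of the genes with counts listed, 12 matched at least 60% of the Speer4a transcript at 90% identity or more. Counting these copies together with Speer4a gave 3.64 and 3.32 CPM in the libraries labelled DKO, against 9.98 and 10.6 CPM in H2A.Z controls, and 17.7 and 9.04 CPM in Mll2 KO, against 10.9 and 11.3 CPM in WT. The sum kept the libraries labelled DKO below the others, by less than Speer4a alone. The 11 copies other than Speer4b summed to 1.60 and 1.52 CPM in the libraries labelled DKO, against 0.827 and 0.717 CPM in H2A.Z controls, so this small signal ran the other way. How reads of the copies were assigned is not given in the sources used here. No other transcript matched Zc4h2, Nicn1 or Kcnmb2 at 80% identity over 20% of its length.

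Of the 14 other Speer symbols 5 were tested, of which 2 were called lower and 1 higher in the libraries labelled DKO. The shares over all tested genes were 11.5% lower and 19.4% higher. Speer4f2 (chr5:17373186-17377992) had 1.77 and 1.76 CPM in the libraries labelled DKO, against 5.12 and 6.42 CPM in H2A.Z controls, and fell by 1.71 ± 0.23 (adjusted p = 7.41e-05). It had 13.08 and 11.96 CPM in Mll2 KO, against 7.77 and 7.95 CPM in WT, and rose by 0.67 ± 0.19 (adjusted p = 0.0146), and without WT 1 or WT 2 the log2 difference was 0.66 and 0.68 but was not called (adjusted p = 0.09153 and 0.09525). The difference between these effects was -2.38 ± 0.30 (adjusted p = 6.57e-05). Speer4f2 thus moved in the directions that Speer4a had been picked for, and it was not among the genes picked. It shares 39.5% of the Speer4a transcript at 85.4% identity. Of its own shorter transcript of 1278 bases, 91.8% matched Speer4a at that identity. How reads were assigned between Speer4f2 and Speer4a is not given.

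Speer4b (chr5:27495809-27501392) had 1.15 and 1.14 CPM in the libraries labelled DKO, against 3.62 and 3.79 CPM in H2A.Z controls, and fell by 1.69 ± 0.32 (adjusted p = 0.00105). In Mll2 KO it had 1.52 and 1.21 CPM, against 2.48 and 3.50 CPM in WT, and fell by 1.13 ± 0.30 (adjusted p = 0.0101), though this call was lost without WT 2 (0.124). The pseudogene Speer5-ps1 had 796.2 and 842.4 CPM in the libraries labelled DKO, against 550.3 and 531.1 CPM in H2A.Z controls, and rose by 0.60 ± 0.10 (adjusted p = 0.000316). The family thus held members that moved in both directions. Of the 10 protein-coding neighbours of Speer4a only 1 was tested, with no call in either line by edgeR or DESeq2 and no unadjusted p under 0.05, and Gm5862, the nearest on one side, had 0 counts in every library. These 10 neighbours are themselves among the near copies of Speer4a summed above, so they are not a separate readout and may share reads with it.

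**Figure D3:**
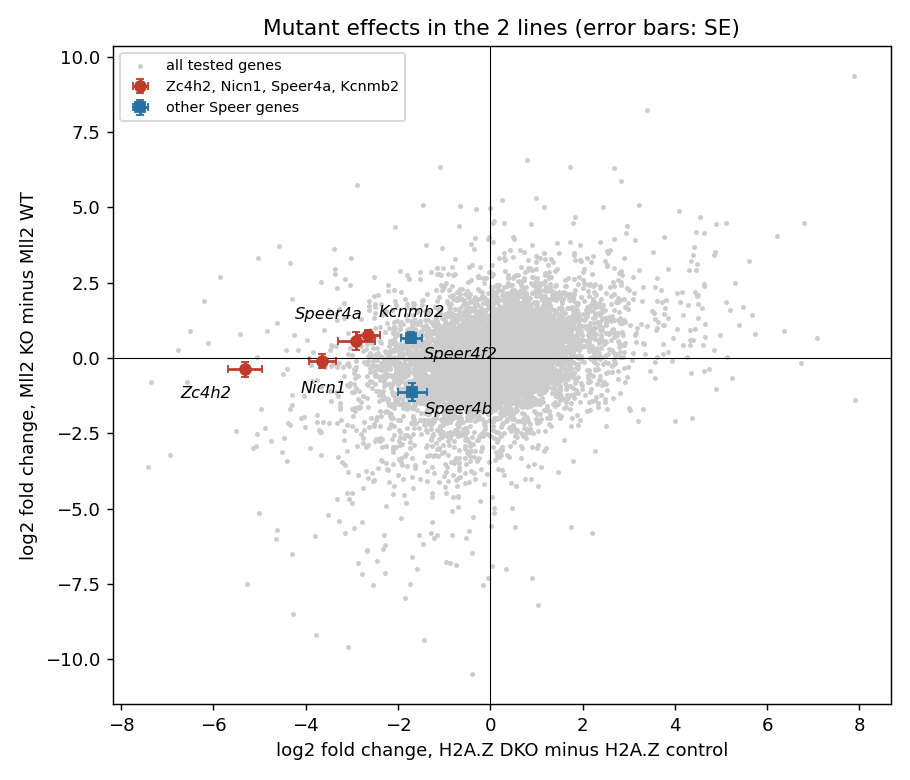
Log2 fold change in the Mll2 line (y axis, KO minus WT) against that in the H2A.Z line (x axis, DKO as labelled minus control) for all 16847 tested genes in grey, with Zc4h2, Nicn1, Speer4a and Kcnmb2 as circles and Speer4f2 and Speer4b as squares; error bars are SE. The circles lie between -5.32 and -2.65 on the x axis and between -0.38 and 0.75 on the y axis, a region that also holds many grey points.

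Kcnmb2 (chr3:31901861-32200180, plus strand) was the 1 gene of the 4 that was higher in both Mll2 KO libraries than in both WT libraries. It had 15.1 and 16.0 CPM in Mll2 KO, against 9.09 and 9.33 CPM in Mll2 WT, a log2 difference of 0.75 ± 0.19. In the libraries labelled DKO it had 0.887 and 1.28 CPM, against 7.39 and 6.26 CPM in H2A.Z controls. The lowest Mll2 KO value was 11.8 times the highest value under the DKO label.

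The log2 difference of Kcnmb2 in the libraries labelled DKO was -2.65 ± 0.25, 6.28-fold lower and 15.9% of the H2A.Z control mean. It rested on 20 and 27 counts in the libraries labelled DKO, against 143 and 157 counts in H2A.Z controls. The difference ran between -2.93 and -2.40 over 14 other ways of processing, and that in Mll2 KO between 0.68 and 0.88. The 2 directions thus held in every setting tried, although the libraries that show them also picked the gene.

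No other calcium-activated potassium channel gene was called lower under the DKO label. Of 13 genes 10 were tested, of which 4 were called higher and 0 lower under the DKO label (median log2 0.65). The 4 include Lrrc52, which passed the filter only through the libraries labelled DKO. In Mll2 KO 1 was called higher and 0 lower (median 0.34). Over all tested genes 19.4% were called higher and 11.5% lower under the DKO label, and 14.4% and 16.2% in Mll2 KO. In the libraries labelled DKO 0 were lower at an unadjusted p under 0.05 or by DESeq2 either, and DESeq2 called 2 higher, while in Mll2 KO 2 were lower at that unadjusted p and 1 by DESeq2. Kcnma1, the pore-forming subunit that Kcnmb2 binds, had 17.6 and 19.5 CPM in the libraries labelled DKO, against 19.1 and 18.4 CPM in H2A.Z controls, and did not pass the test (log2 -0.02, adjusted p = 0.945). In Mll2 KO it had 15.6 and 13.4 CPM, against 18.3 and 16.7 CPM in WT, and did not pass either (-0.27, adjusted p = 0.201).

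Kcnmb3, another beta subunit and also a neighbour of Kcnmb2 on chromosome 3, had 47.2 and 38.1 CPM in the libraries labelled DKO, against 24.5 and 27.4 CPM in H2A.Z controls. It rose by 0.72 ± 0.16 (adjusted p = 0.00299), a call not kept with H2A.Z control 1 (0.051) or DKO 1 (0.0677) left out, which is the opposite direction to Kcnmb2 in the same libraries. Kcnn4, the intermediate-conductance channel, rose in both lines, by 0.82 ± 0.15 (adjusted p = 0.000708) in the libraries labelled DKO and by 0.72 ± 0.15 (adjusted p = 0.00187) in Mll2 KO. Kcnmb1, a beta subunit known from smooth muscle, had 0 counts in both libraries labelled DKO, against 1 and 3 counts in H2A.Z controls, and did not pass the test (unadjusted p = 0.0517, adjusted p = 0.124). It had 17 and 18 counts in Mll2 KO, against 6 and 3 counts in WT (log2 1.95 ± 0.73, adjusted p = 0.0541). Kcnmb1 is thus at the floor in the whole H2A.Z line, and by its fitted values it counts among the genes low under the DKO label and not in Mll2 KO.

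The other calls were those of Lrrc52 and Lrrc55, auxiliary gamma subunits with few counts. Lrrc52 had 0.754 and 0.522 CPM in the libraries labelled DKO, against 0 and 0.120 CPM in H2A.Z controls (adjusted p = 0.0271, and up to 0.163 without H2A.Z control 1, DKO 1 or DKO 2, and 0.0729 by DESeq2). It had 17 and 11 counts under the DKO label, 0 and 3 in H2A.Z controls, 8 and 2 in Mll2 KO and 4 and 1 in Mll2 WT. It thus passed the filter only through the group where it was high, and its call is no support for a rise. Lrrc55 had 1.07 and 0.949 CPM in the libraries labelled DKO, against 0.310 and 0.438 CPM in H2A.Z controls (log2 1.40 ± 0.51, adjusted p = 0.0488). The call of Lrrc55 was lost without any 1 H2A.Z library, either Mll2 WT library or Mll2 KO 2, with an adjusted p of up to 0.215. In all it was lost in 13 of 14 alternatives, among them DESeq2 (0.126), library total alone (0.0805), the line fitted alone (0.069) and the replicate block (0.0606).

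Around Kcnmb2 8 of 10 neighbours were tested, of which 2 were called higher and 0 lower under the DKO label, with 0 lower also at an unadjusted p under 0.05 and by DESeq2. The nearest genes, Slc7a14 at 591 kb (log2 0.22, adjusted p = 0.849) and Zmat3 at 135 kb (0.05, adjusted p = 0.959), did not pass the test. Pik3ca, the catalytic subunit of a phosphoinositide kinase that oocytes use during growth, had 46.9 and 50.4 CPM in the libraries labelled DKO, against 30.4 and 31.3 CPM in H2A.Z controls, and rose by 0.66 ± 0.12 (adjusted p = 0.000815). Phc3, a Polycomb protein, fell in Mll2 KO by 0.79 ± 0.22 (adjusted p = 0.0135), though this call was lost without WT 1 (0.0959), WT 2 (0.05625) or KO 1 (0.0554). Over all 40 neighbours of the 4 genes, 25 were tested, and 7 were called higher and 1 lower under the DKO label. The neighbours of Speer4a in this total are near copies of it. In Mll2 KO 3 were called higher and 3 lower. The shares over all tested genes were 19.4% higher and 11.5% lower under the DKO label, and 14.4% and 16.2% in Mll2 KO.

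Taking listed genes and neighbours as 1 pool of 71 tested genes, 23 (32.4%) were called in the libraries labelled DKO, against 5198 (30.9%) of all tested genes. In Mll2 KO 20 (28.2%) were called, against 5158 (30.6%) of all, and the effects differed between the lines for 12 (16.9%), against 3291 (19.5%) of all, 1126 (6.68%) with a lower and 2165 (12.9%) with a higher effect under the DKO label. These shares were near the background. Leaving out 1 library at a time moved the 23 to between 13 and 28, the 20 to between 9 and 26 and the 12 to between 5 and 17. The 23 were 14 without either H2A.Z control and 13 without DKO 1, the 20 were 12 without Mll2 WT 1 and 9 without WT 2, and the 12 were 5 to 7 without H2A.Z control 2, either DKO library or either Mll2 WT library.

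**Figure D4:**
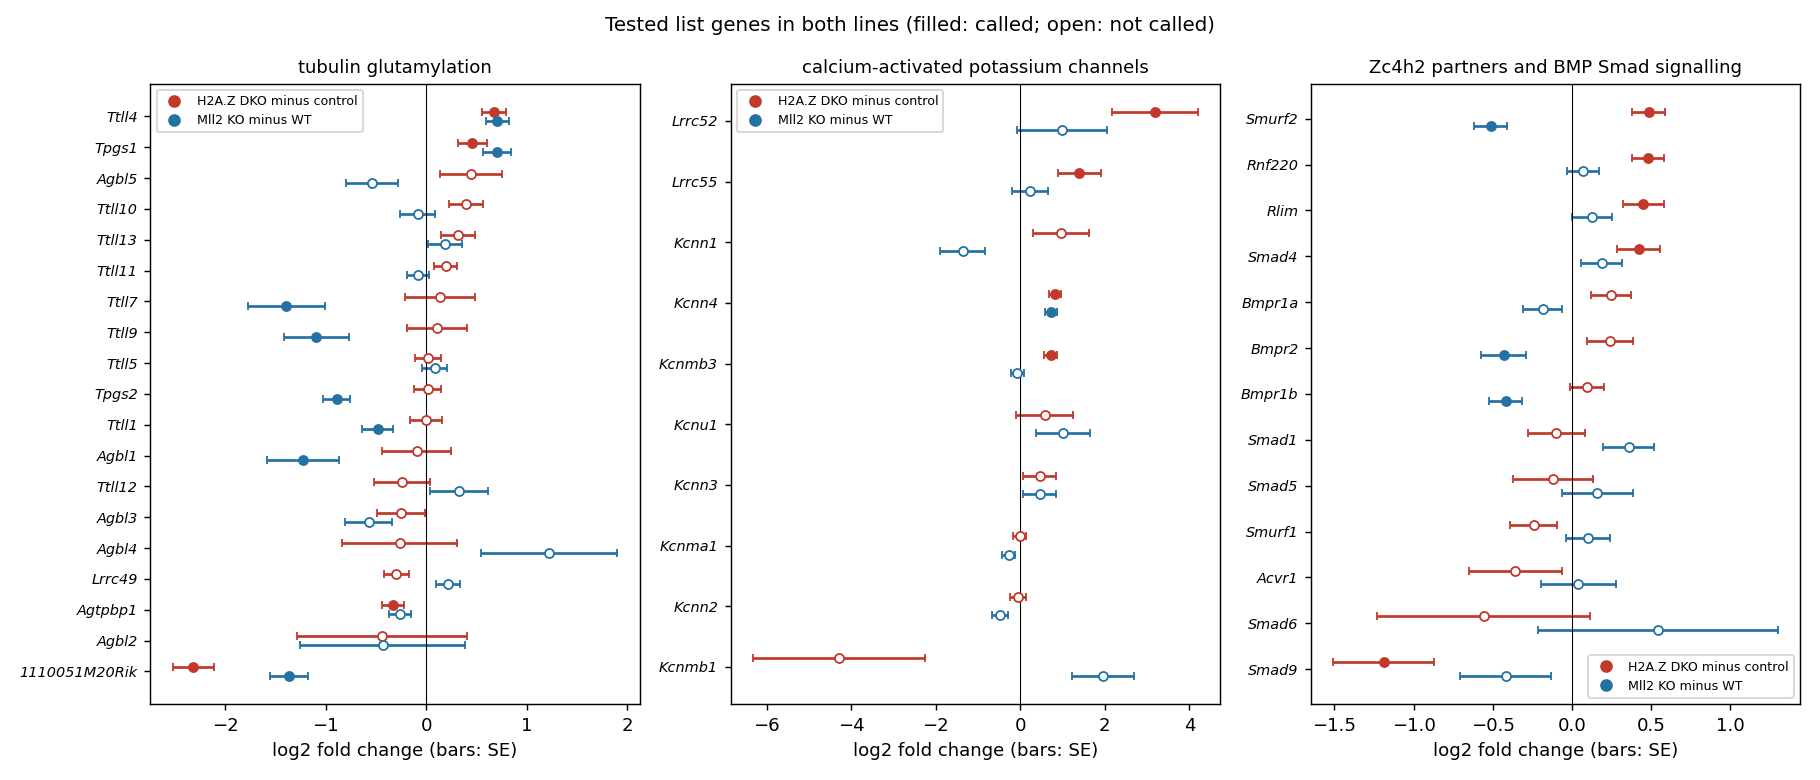
Log2 fold change (x axis; bars are SE) of each tested gene of the tubulin glutamylation, calcium-activated potassium channel and Zc4h2 partner lists, with H2A.Z DKO as labelled minus control in red and Mll2 KO minus WT in blue; filled circles are called and open circles are not. Red points lie on both sides of 0 in the tubulin and Zc4h2 partner panels, and no filled red point lies below 0 in the potassium channel panel.

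Per length of transcript, the 4 genes were at modest levels in oocytes outside the DKO label. In H2A.Z controls Nicn1 had 5.48 ± 0.0174 and Zc4h2 4.95 ± 0.553 CPM per kb of exon, above Kcnmb2 at 2.18 ± 0.257 and Speer4a at 1.96 ± 0.143 (SD, n = 2 each). The difference within each of these pairs was smaller than the larger SD. In the libraries labelled DKO the order was Nicn1 at 0.444 ± 0.296, Kcnmb2 at 0.347 ± 0.0892, Speer4a at 0.260 ± 0.0528 and Zc4h2 at 0.122 ± 0.00584 CPM per kb, so the gene that had been second in controls was last, and Zc4h2 alone differed from its neighbour in the order by more than the larger SD. In Mll2 KO Kcnmb2 led with 4.97 ± 0.194 CPM per kb, followed by Nicn1 at 3.97 ± 0.486, Speer4a at 3.72 ± 2.14 and Zc4h2 at 2.13 ± 0.491, and beyond Kcnmb2 no step in this order exceeded the larger SD. In Mll2 WT the order was Nicn1 at 4.26 ± 0.174, Kcnmb2 at 2.95 ± 0.0547, Zc4h2 at 2.77 ± 0.792 and Speer4a at 2.53 ± 0.0278 CPM per kb, where the step below Nicn1 exceeded the larger SD and the others did not.

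The controls of both lines also differed in the 4 genes. Zc4h2 in H2A.Z controls was 1.79 times its level in Mll2 WT, and Nicn1 was 1.29 times. Speer4a was 0.773 times and Kcnmb2 0.741 times its level in Mll2 WT. For Zc4h2 the ranges of the 2 control pairs did not overlap, and neither did those of the other 3 genes. The share of all tested genes with such ranges was not counted. The H2A.Z controls also entered the choice of the 4 genes, so these differences are a description and carry no test. Line and any difference in handling between the lines cannot be told apart here. In these pools fewer transcripts per oocyte in all oocytes and loss in some of the oocytes cannot be told apart either.

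The 4 genes were not alone in their pattern. Of the tested genes 442 had a log2 difference of -2 or lower in the libraries labelled DKO, and 206 of these (46.6%) had -0.5 or higher in Mll2 KO, 146 of them with gene names and 60 with predicted or clone symbols. These counts rest on the fitted differences alone, with no call and no least level required in the H2A.Z line. The 206 include genes at the floor in that whole line, such as Tmem102 and Kcnmb1, so not all of them show a measured loss. Kcnmb2 and Speer4a had 0.75 and 0.56 in Mll2 KO, while 29 of the 442 (6.56%) were called higher there and 156 (35.3%) were called lower. The shares over all tested genes were 14.4% higher and 16.2% lower in Mll2 KO. The median Mll2 KO difference of the 442 was -0.60. That each of the 4 genes lay above it follows from how they were picked. By depth of loss Zc4h2 was 12th, Nicn1 66th, Speer4a 150th and Kcnmb2 195th lowest.

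The genes most like each of the 4 over the 8 libraries were sought among 9364 tested genes with at least 5 CPM in their highest group, 5 per gene, by Pearson's r of log2 CPM. The libraries share their group means, so r is a description of likeness and has no test. Nearest to Zc4h2 were Coq6, an enzyme of ubiquinone synthesis (r = 0.994), Dnajc17 (0.988), the proteasome activator Psme2 (0.987), D6Wsu163e (0.984) and Mctp1 (0.983). Nearest to Nicn1 were the sphingomyelinase Smpd2 (0.995), the kinase Btk (0.993), Bysl (0.985), Rnf13 (0.982) and Rab4b (0.981). Nearest to Speer4a were the copper transporter Slc31a1 (0.991), Mlx (0.988), Rnf180 (0.986), Zfp84 (0.985) and Ptges2 (0.979). Nearest to Kcnmb2 were Rttn (0.998), Ankra2 (0.996), Zfp61 (0.996), the amino acid transporter Slc38a1 (0.994) and Krtcap2 (0.991).

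These 20 genes had log2 differences between -2.96 and -0.54 in the libraries labelled DKO. Each was less deeply lowered than the gene it resembles, which had been picked for a large drop. Rttn, a centriole protein, had 34.3 and 38.5 CPM in the libraries labelled DKO, against 104.1 and 105.4 CPM in H2A.Z controls, and 173.2 and 165.5 CPM in Mll2 KO, against 125.3 and 123.2 CPM in WT. Its log2 differences, -1.53 under the DKO label and 0.45 in Mll2 KO, had the signs of those of Kcnmb2 and were smaller. Of the 18 with a promoter sequence 1, Dnajc17, held the run shared by Zc4h2 and Nicn1. Dnajc17 had 12.5 and 12.5 CPM in the libraries labelled DKO, against 51.3 and 58.3 CPM in H2A.Z controls, and 43.2 and 39.2 CPM in Mll2 KO, against 40.3 and 43.7 CPM in WT.

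All 12 oocyte markers, among them Zp1 to Zp3, Gdf9 and Bmp15, were tested and summed to 28950 and 32300 CPM in the libraries labelled DKO, against 29760 and 28570 CPM in H2A.Z controls, and 21210 and 19320 CPM in Mll2 KO, against 20880 and 26270 CPM in WT. The 12 granulosa and cumulus markers summed to 129.3 and 131.0 CPM in the libraries labelled DKO, against 94.7 and 95.4 CPM in H2A.Z controls, and to 103.2 and 104.3 CPM in Mll2 KO, against 92.5 and 94.7 CPM in WT. Of their 10 tested members 4 were called higher and 1 lower under the DKO label. With libraries scaled by total alone it was 2 and 1, and by DESeq2 3 and 0. In Mll2 KO 3 were called higher and 2 lower. Over all tested genes 19.4% were called higher and 11.5% lower under the DKO label, and 14.4% and 16.2% in Mll2 KO. Fshr, the receptor for follicle-stimulating hormone, had 18.7 and 18.9 CPM in the libraries labelled DKO, against 1.29 and 0.598 CPM in H2A.Z controls, and 7.25 and 7.70 CPM in Mll2 KO, against 0.992 and 0.594 CPM in WT. Ptgs2, a prostaglandin synthase, had 3.68 and 3.70 CPM in the libraries labelled DKO, against 0.259 and 0.159 CPM in H2A.Z controls. Both genes were called higher under the DKO label (edgeR, adjusted p = 1.5e-07 for Fshr and 4.66e-05 for Ptgs2). They were also called higher in Mll2 KO (1.05e-06 for Fshr and 0.0025 for Ptgs2). Other members went the other way. Fst was called lower under the DKO label (log2 -3.27 ± 0.99, edgeR, adjusted p = 0.0207), at 1 count in each of those libraries. Cyp19a1 (-0.78 ± 0.12, adjusted p = 0.000171) and Kitl (-0.83 ± 0.20, adjusted p = 0.00496) were called lower in Mll2 KO. Of the defining markers, Amh was at 0 in 6 libraries and at 1 count in each H2A.Z control, and Foxl2 reached at most 0.237 CPM. Theca and stroma markers summed to 2.68 to 6.74 CPM in every library, with Col3a1 at 0 throughout. Blood, immune and endothelial markers summed to 32.8 and 29.2 CPM in the libraries labelled DKO, against 22.2 and 23.7 CPM in H2A.Z controls, and were mostly Pecam1, with Hba-a1, Hbb-bs and Cdh5 at 0. The part of other cell types in the levels of the 4 genes was not tested.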

How the data were processed

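RNA sequencing of full-grown mouse oocytes gave 8 libraries in 4 groups, as the labels name them. The authors deposited raw counts, 1 whole number per gene symbol and library with no scaling, and 8787 of 35976 symbols were at 0 throughout. The submitters' processing notes name mm10, RSEM 1.3.1, STAR 2.7.3 and Trim Galore 0.6.4. For the annotation, strand use, rounding and the step each tool did, the sources used here give nothing. RSEM estimates can divide reads between near copies, which bears on Speer4a, and overlapping genes may share reads.

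The genes and lists were chosen with earlier results of these data known. A single model of 4 group means was fitted to the 8 libraries with edgeR 4.0.16 (R 4.3.3). Genes were kept by filterByExpr (16847 tested, all 4 genes among them), scaled by TMM and tested by the robust quasi-likelihood test with 4 residual degrees of freedom. Calls are Benjamini-Hochberg adjusted p under 0.05 over all tested genes. The difference between mutant effects is the interaction contrast. CPM are counts over TMM-scaled library size, and log2 CPM used a prior count of 2. SE was derived from the F statistic. The steps were tested on simulated data. DESeq2 1.42.0 was an alternative tool.

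Named list genes are up to 6 called genes per list by smallest p, and of neighbours the nearest on each side plus up to 4 called. A neighbour of Zc4h2 is in the counts and is not reported here by name. Replicate numbers were not treated as pairs, since the labels do not say whether they pair libraries, and no library was left out. The exact binomial 95% intervals cover counting error only. Promoters came from RefSeq on GRCm38.p6, where all 4 genes matched, and transcripts were compared with BLAST 2.17.0.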

Additional observations from a re-analysis of the deposited data

Results flagged for a closer look

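For 11 of the named list, neighbour and family genes the effect in the H2A.Z line (libraries labelled DKO minus control) differed from that in the Mll2 line (KO minus WT) by edgeR's test of the difference itself, on the log2 scale. Over all tested genes 3291 of 16847 (19.5%) were called in that test, 1126 (6.68%) lower and 2165 (12.9%) higher. Apart from nearest neighbours, named genes were chosen by their calls in the mutant comparisons, so the 11 cannot be read against that share. None of the 11 is 1 of the 4 genes described, which were picked for such a difference and were not tested. The largest was Speer4f2, at -2.38 ± 0.30 (SE, adjusted p = 6.57e-05), which was lower in the libraries labelled DKO and higher in Mll2 KO. Bsn, a presynaptic scaffold gene near Nicn1, had 5.10 and 4.46 CPM in the libraries labelled DKO, against 2.84 and 3.55 CPM in H2A.Z controls, and 6.37 and 7.56 CPM in Mll2 KO, against 1.98 and 1.39 CPM in WT. Its difference was -1.47 ± 0.37 (adjusted p = 0.0103), and its adjusted p was 0.0761 with H2A.Z control 2 left out and 0.05435 with Mll2 WT 2 left out. The gene 1110051M20Rik, lower in both lines, differed by -0.95 ± 0.28 (adjusted p = 0.0254), and missed the threshold without any 1 H2A.Z library or either Mll2 WT library, at up to 0.103.

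In 8 genes the difference was above 0. Smurf2 differed by 1.00 ± 0.15 (adjusted p = 0.000274), Pik3ca by 0.84 ± 0.17 (adjusted p = 0.00242), Tpgs2 by 0.90 ± 0.19 (adjusted p = 0.00369) and Speer5-ps1 by 0.70 ± 0.14 (adjusted p = 0.00238). These 4 kept their calls in every alternative run. Kcnmb3 differed by 0.79 ± 0.22 (adjusted p = 0.0189), and lost the call without either H2A.Z control, DKO 1 or Mll2 WT 1, at up to 0.124, and with library total alone (0.125). Bmpr1b differed by 0.51 ± 0.15 (adjusted p = 0.0236), with up to 0.228 when 1 library was left out (H2A.Z control 2, DKO 1, DKO 2, Mll2 WT 1, Mll2 WT 2 or Mll2 KO 1) and 0.216 with library total alone. Ttll7 differed by 1.53 ± 0.52 (adjusted p = 0.0495) and Zc3h12b by 1.11 ± 0.37 (adjusted p = 0.0482). Both lost the call without any 1 H2A.Z library, either Mll2 WT library or Mll2 KO 1, at up to 0.253 for Ttll7 and 0.213 for Zc3h12b. Both also lost it under DESeq2 size factors (0.0651 for Ttll7 and 0.0687 for Zc3h12b), library total alone (0.113 and 0.136 in that order) and the DESeq2 Wald test (0.0863 and 0.113). Zc3h12b lost it with no filter (0.0569) and with the replicate block (0.0622) as well.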

How the results depend on the processing

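For the 4 genes, the direction in the libraries labelled DKO was the same in all 14 alternatives, with log2 differences of -5.44 to -5.20 for Zc4h2, -4.54 to -3.07 for Nicn1, -3.13 to -2.71 for Speer4a and -2.93 to -2.40 for Kcnmb2. In Mll2 KO they ran from -0.67 to -0.06 for Zc4h2, -0.27 to 0.03 for Nicn1, -0.18 to 1.02 for Speer4a and 0.68 to 0.88 for Kcnmb2. The low end is limited by depth, with 6 to 39 counts in the libraries labelled DKO.

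Leaving out 1 library at a time moved the 5198 genes called in the libraries labelled DKO to between 2645 and 6568, the 1929 called lower to between 1136 and 3389, and the 23 list and neighbour genes to between 13 and 28. Without any 1 of the 4 H2A.Z libraries the genes called there were 2645 to 3093 and those called lower 1136 to 1205, and without Mll2 KO 1 or 2 those called lower were 3389 and 3388. It moved the 5158 genes called in Mll2 KO to between 2661 and 6817, the 2730 called lower to between 1651 and 3456, the 20 list and neighbour genes to between 9 and 26, and the 12 with a difference between lines to between 5 and 17. In Mll2 KO the lowest counts came without Mll2 WT 1 (3159 genes called) or WT 2 (2661). Fitting the H2A.Z line alone called 3482 genes lower under the DKO label, and the cause was not tested. Scaling by library total alone moved the median log2 difference of all genes to 0.00 from 0.12 under the DKO label and to 0.14 from 0.02 in Mll2 KO, and the share of higher calls to 45.5% from 62.9% and to 62.9% from 47.1%. With the replicate block, 4988 genes (1868 lower) were called under the DKO label and 4968 (2663 lower) in Mll2 KO, with 21 list and neighbour genes in each and 11 for the difference between lines. The replicate numbers share no stated source, and their deviations correlated at 0.0395 in the H2A.Z line and -0.0221 in the Mll2 line. Of 1350 alternative values for named genes, 1210 kept their side of the threshold, 121 lost a call, 19 gained one and 0 changed sign with a call.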
